A study of Danio rerio with 4 samples.

Results

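Clustered narrow accessible sites are short peak intervals that lie close to other short intervals. They were taken from the deposited count table of bulk ATAC-seq, an assay in which the Tn5 transposase cuts and tags DNA where nucleosomes do not cover it, so that read counts follow how open the chromatin is. An interval was a member if it was 100 to 1000 bp long and at least 3 other intervals of that length lay on the same chromosome with their midpoints within 20000 bp of its own. Chromosomes 3, 4, 7 and 22 were left out. The rule used positions only and no read count. The positions are themselves peaks called per condition from these libraries, so membership is not independent of the groups. All intervals of the table together covered 806 Mb, so a place in it does not by itself show open chromatin. The rule selected 7599 members of the 54036 intervals in the table (14.1%), or 42.8% of the 17739 narrow intervals on the 21 chromosomes used. The other 10140 narrow intervals on these chromosomes are called isolated. Members are intervals and not replicates, and all of them were measured in the same 4 libraries.

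The libraries were made from noncardiomyocytes (nonCMs, the heart cells other than muscle cells) of adult zebrafish at 7 days, 2 titled Treatment and 2 titled WT. In the labels the genotype is wild type for all 4 libraries, the cells come from the injury area of the heart, and amputation is named as a treatment for Treatment only. The study's text instead describes tnfα mutant hearts set against wild-type hearts, both after amputation. The label names are kept here, and a difference in genotype between the groups cannot be told apart from a difference in treatment. The sources do not say how many hearts went into a library or whether the 2 replicates of a group came from separate fish, so p-values measure only the spread between these libraries. The counts are over bulk nonCMs, in which a shift in the share of a cell type and a change of accessibility within cells cannot be told apart.

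Accessible regulatory DNA is typically short, because a promoter or an enhancer exposes a stretch of about the length freed when a few nucleosomes move aside. Enhancers of the same gene or of neighbouring genes often lie near each other, and groups of such elements are a known feature of loci with strong cell-type-specific activity. In the regenerating zebrafish heart, nonCMs such as epicardial cells, fibroblasts, endocardial cells and macrophages are known to open new regulatory elements after injury. No gene, exon or intron is assigned to a site here, and no sequence is shown, because gene positions and a genome of this build were not used.

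Totals over all intervals ranged from 14736856 to 16558109 reads in the Treatment libraries and from 16128000 to 16822284 in the WT libraries. The median count of a tested member in a library was 80 reads, which alone gives a counting error of 11.2%. Across tested members, Pearson's r of log2 CPM (reads per 1e+06 reads, scaled with TMM, the trimmed mean of M values) was 0.959 for the Treatment pair, 0.955 for the WT pair and 0.938 to 0.949 between groups. These values are across sites, which share libraries and are no replicates.

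The members had a median width of 427 bp, with quartiles of 297 and 615 bp, close to the median of 430 bp of isolated narrow intervals. In density they had a median of 190 reads per kb and library, with quartiles of 117 and 287, while isolated intervals had a median of 173. Both classes stood far above the intervals of over 5 kb, at a median of 14.5 reads per kb. A member had a median of 9 others in reach, with quartiles of 4 and 17 and a maximum of 52. At the edge of the rule, the 1564 members with exactly 3 others had a median of 171 reads per kb, and the 2226 isolated intervals with 2 others had 177. In all, 5543 members (72.9%) shared a border with another interval of the table, against 72.1% of isolated intervals. Of the consecutive members, 2590 pairs touched each other, so neighbouring members can be pieces of 1 accessible region.

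The members were not spread evenly. Chromosome 12 held 1316 of them, which was 75.9% of its narrow intervals, and chromosome 17 held 845, or 64.9%. Chromosomes 10, 15 and 1 followed with 57.0%, 56.5% and 56.1% of their narrow intervals, and chromosome 13 had the lowest share, at 21.4%. To describe this, consecutive members with midpoints at most 20000 bp apart were joined into chains. There were 797 chains, with a median of 4 members, and a chain could hold only 1. Of these, 736 had under 10 members, 46 had 10 to 49 and 15 had 50 or more. The 15 long chains held 3543 members, or 46.6% of all. These size classes were chosen after the values were seen, so they are described and not tested.

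Of the 15 long chains, 14 were dense stretches. They lay on 7 chromosomes (1, 8, 10, 12, 15, 16 and 17), each spanned 261 to 983 kb, and between 59.1% and 88.4% of each span was covered by intervals. Within the spans the table held 5424 intervals, of which 3480 were members. Read density over a whole span was 155 to 336 reads per kb per library. Their covered length of 6.34 Mb was 0.786% of the length of the table, at a mean of 348 reads per kb against 17.3 reads per kb in the rest. They took 13.7% and 13.5% of all reads in the Treatment libraries, and 13.8% and 13.9% in the WT libraries. The longest chain, on chromosome 12 from 12787723 to 13770750 (GRCz11, counted from 1), had 459 members and its span took 2.05% and 2.02% of the reads in Treatment, and 2.07% and 2.07% in WT. The next were 370 members from 24702942 to 25575047 on the same chromosome, whose span took 1.26% and 1.22% in Treatment and 1.26% and 1.27% in WT, and 355 members from 19343203 to 20241704 on chromosome 16, whose span took 1.77% and 1.76% in Treatment and 1.78% and 1.80% in WT. The remaining long chain differed. It held 63 members from 36177562 to 36332331 on chromosome 2, but its span had only 8.47 reads per kb.

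**Figure D1:**
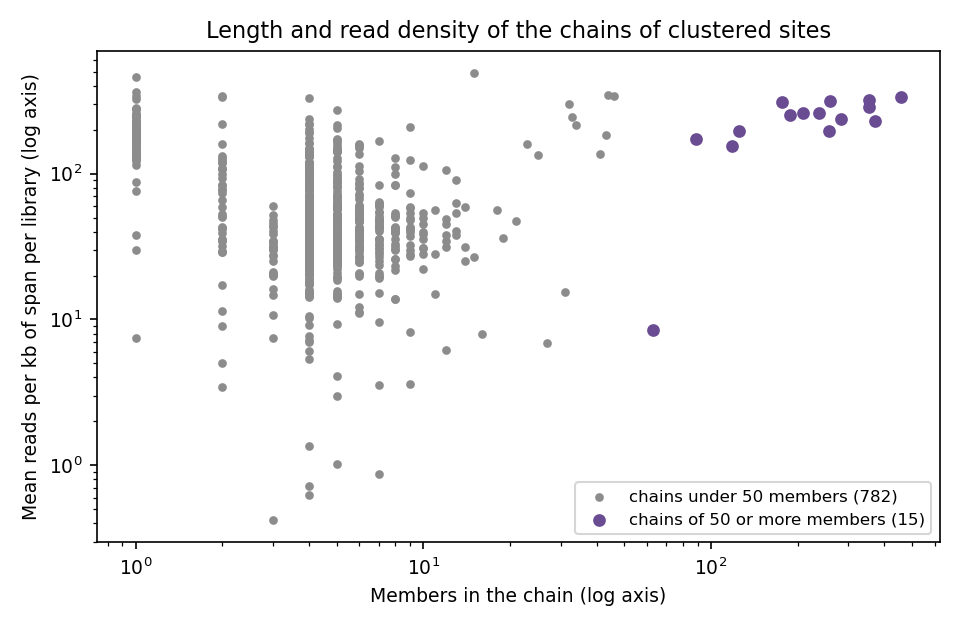
Each point is 1 of the 797 chains of clustered sites, placed by its number of members and by the mean reads per kb per library over its whole span, both on log axes. Of the 15 chains with 50 or more members, 14 lie between 155 and 336 reads per kb, and the one on chromosome 2 lies at 8.47.

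The dense stretches were not even inside. Their members had a median of 236 reads per kb, with a 10th percentile of 41.7 and a 90th percentile of 867, and the 1944 other intervals in the spans had a median width of 1753.5 bp and a median of 53.3 reads per kb. Over all intervals of the table, of median width 2152 bp, the median was 27.9 reads per kb. The median density of the other intervals in the spans was thus also above that of the table at large. This comparison was not matched for width, and wide intervals were less dense. The 5 members with the most reads per kb all lay in long chains. The densest, from 12849526 to 12849997 on chromosome 12, had 7643 and 8524 reads in Treatment, and 8040 and 8099 in WT. The next was 30945360 to 30945857 on chromosome 12, with 4550 and 4717 reads in Treatment, and 5232 and 5502 in WT. It was followed by 15413829 to 15414326 on chromosome 10, with 4656 and 4875 reads in Treatment, and 4906 and 5074 in WT. The other two were on chromosome 17, and none of the 5 passed the test (the lowest edgeR adjusted p was 0.30), with log2 fold changes between -0.13 and 0.08.

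The first comparison asked how much of each library fell in the members. They took 7.06% (95% Wilson confidence interval 7.04 to 7.07) and 6.96% (6.94 to 6.97) of the reads in the Treatment libraries, and 7.13% (7.12 to 7.15) and 7.41% (7.40 to 7.42) in the WT libraries. Both Treatment libraries lay below both WT libraries, but the difference of -0.26 percentage points was about the size of the gap between the WT replicates. The exact two-sided permutation p was 0.333, the smallest that 2 libraries against 2 can give. Without WT replicate 2 the difference was -0.13, and as a share of the reads in narrow intervals of all chromosomes it turned to 0.94 percentage points (exact permutation p = 0.667). Isolated intervals took 5.79% and 5.52% in Treatment, and 5.84% and 6.38% in WT.

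Next, each interval of the table was tested between Treatment and WT with edgeR's quasi-likelihood test, with p-values adjusted by Benjamini-Hochberg over all 50494 tested intervals. Of the members, 7192 had enough reads to be tested, and the 407 others had a median of 17 reads over the 4 libraries together, 52 of them with 0. At an adjusted p under 0.05, 47 members were lower and 7 were higher in Treatment. These 54 were 0.751% of the tested members, while 1.16% of all tested intervals were called. Of the 9220 isolated intervals tested, 77 were lower (0.835%) and 25 higher (0.271%), with 1.11% called. More lower than higher calls were thus not particular to members. The median count per library was 130 reads over all tested intervals and 80 over tested members, so these shares are not like for like in read number. By direction, 0.721% of all tested intervals were lower and 0.438% were higher, against 0.654% and 0.0973% of the members. At an unadjusted p under 0.05, 658 members were lower and 267 higher, while 6.68% of all tested intervals were lower and 4.51% higher. Of the 9220 isolated intervals, 1248 were lower and 257 higher at that threshold. Both Treatment libraries lay below both WT libraries in 1851 members (25.7%, against 21.4% of all tested intervals) and above both in 1157 (16.1%, against 19.9%). In isolated intervals these shares were 35.6% and 11.8%. The median log2 fold change of the members was -0.05, beside -0.0023 over all tested intervals and -0.17 over isolated intervals. On these measures the members lay lower than the table at large, but less so than isolated intervals.

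These counts depended on single libraries and on the tool. Without Treatment replicate 2, 17 members were lower, without WT replicate 2 there were 22, and without WT replicate 1 there were 127. DESeq2 called 14 lower and 2 higher, with 0.275% and 0.224% of all tested intervals called. When TMM factors came from intervals of at most 1 kb only, 33 members were lower and 43 higher, as this scaling moved the median of all tested intervals to 0.11. The predominance of lower calls among members therefore holds under the scaling to all intervals and not under this one.

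The median change of the members differed by the length of the chain, which was not tested. Over all tested intervals, 0.721% were lower and 0.438% higher (1.16% called). In chains of under 10 members, 35 of 3096 tested were lower and 4 higher (1.26% called), with a median log2 fold change of -0.16. In chains of 10 to 49, 8 of 740 were lower and 2 higher (1.35% called), with a median of -0.08. In chains of 50 or more, 4 of 3356 were lower and 1 higher (0.149% called), with a median of 0.03. The other intervals within the spans of the dense chains, which are no members, had 37 lower and 5 higher of 1925 tested, with a median of -0.0083. Counted by neighbours, the median was -0.18 in the 1497 tested members with 3 others, -0.15 in the 1366 with 4 to 5 and 0.01 in the 4329 with 6 or more. The share of members called was 1.40%, 0.805% and 0.508% in the same order, beside 1.16% of all tested intervals. Below the rule, it was 0.615% in isolated intervals with 2 others and 1.37% in those with 0 others. The share called thus did not fall steadily with the number of neighbours. The median count per library was 71.0 reads in chains of under 10 members, 76.0 in chains of 10 to 49 and 101.6 in chains of 50 or more.

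The medians were also taken within classes of read density, with no test. Among members with 100 to under 200 reads per kb, the median log2 fold change was 0.04 in chains of 50 or more, -0.16 in chains under 50 and -0.17 in isolated intervals. At 200 to under 400 reads per kb the medians were 0.09, -0.18 and -0.19 in that order. At 400 reads per kb and more they were 0.0042, -0.10 and -0.11. Under 100 reads per kb they were -0.0038, -0.05 and 0.02, so that isolated intervals lay above both chain classes there. Members that shared a border with another interval and those that did not had medians of -0.06 and -0.04. Distance to the nearest narrow interval gave -0.04 under 1000 bp, -0.04 at 1000 to under 5000 bp and -0.18 at 5000 bp or more. By width, the median was -0.09 at up to 300 bp, -0.06 above that up to 600 bp and -0.02 in the widest members.

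Single libraries carried a large part of these medians. On log2 CPM centred on the mean of the 4 libraries, members in chains of under 10 had medians of -0.03 and -0.11 in Treatment replicates 1 and 2, and 0.0016 and 0.17 in WT replicates 1 and 2. WT replicate 2 thus lay further from WT replicate 1 than Treatment replicate 1 did. Members in chains of 50 or more had 0.01 and 0.03 in Treatment, and 0.01 and -0.04 in WT, so that the groups overlapped. Isolated intervals had -0.03 and -0.11 in Treatment, and 0.03 and 0.14 in WT. Without WT replicate 2, the median log2 fold change of members in chains under 50 was -0.05 in place of -0.15, and that of members in chains of 50 or more was 0.01 in place of 0.03.

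**Figure D2:**
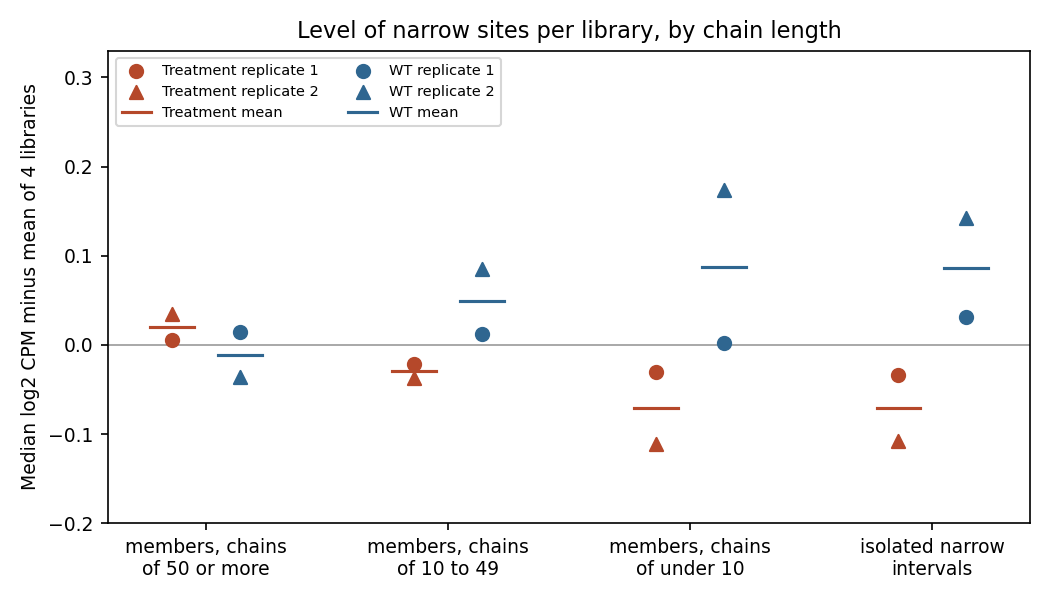
Points give, for each of the 4 libraries, the median over sites of log2 CPM minus the mean of the 4 libraries; lines are means of 2 replicates. In chains of 50 or more the groups overlap, between -0.04 and 0.03, while in chains of under 10 members and in isolated intervals WT replicate 2 is highest, at 0.17 and 0.14, and Treatment replicate 2 lowest, at -0.11 in both.

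To set the members against the isolated intervals directly, the median of the isolated intervals was taken from that of the members in each library. This difference was 0.02 and 0.08 in Treatment, and -0.02 and -0.08 in WT. The members were thus higher relative to isolated intervals in both Treatment libraries than in both WT libraries, by 0.10 on the log2 scale (0.05 ± 0.04 in Treatment and -0.05 ± 0.04 in WT, SD, n = 2 each). The exact two-sided permutation p was 0.333, the smallest this design allows, so the difference did not pass a test. It was 0.08 when medians were taken within quintiles of read density. For the members in chains under 50 alone it was 0.01, and for those in chains of 50 or more 0.19.

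The dense stretch on chromosome 8 did not follow the other dense stretches. It was singled out after its values were seen, so the p-values given for it describe it and do not test it. In 13 of the 14 the median log2 fold change of the members was between 0.0048 and 0.08. On chromosome 8, from 34507913 to 34769305, it was -0.26. Of the 89 members there, 87 were tested and 70 of these had a negative value. Summed over all 89 members, there were 15758 and 16823 reads in Treatment, and 17883 and 20375 in WT. The log2 fold change of the sum was -0.15 (SE 0.04, edgeR adjusted p = 0.0206), but it was 0.0014 with TMM factors from narrow intervals and -0.09 without WT replicate 2 (adjusted p = 0.329). Without Treatment replicate 2 it was -0.11 (adjusted p = 0.641), and with DESeq2 -0.15 (adjusted p = 0.428). Of all 227 members (220 tested) within 600 kb of this chain, from 34393490 to 35296480, 2 were lower and 1 higher, beside 0.721% and 0.438% of all tested intervals. At an unadjusted p under 0.05, 36 were lower and 5 higher, beside 6.68% and 4.51%, and the median of these members was -0.18. Their centred medians were -0.03 and -0.13 in Treatment, and 0.02 and 0.15 in WT, close to the pattern of short chains. The 7 chains in this window were not alike. The densest, from 35062008 and from 35168553, had median log2 fold changes of 0.09 and -0.0040. In the others the median lay between -0.33 and -0.15.

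**Figure D3:**
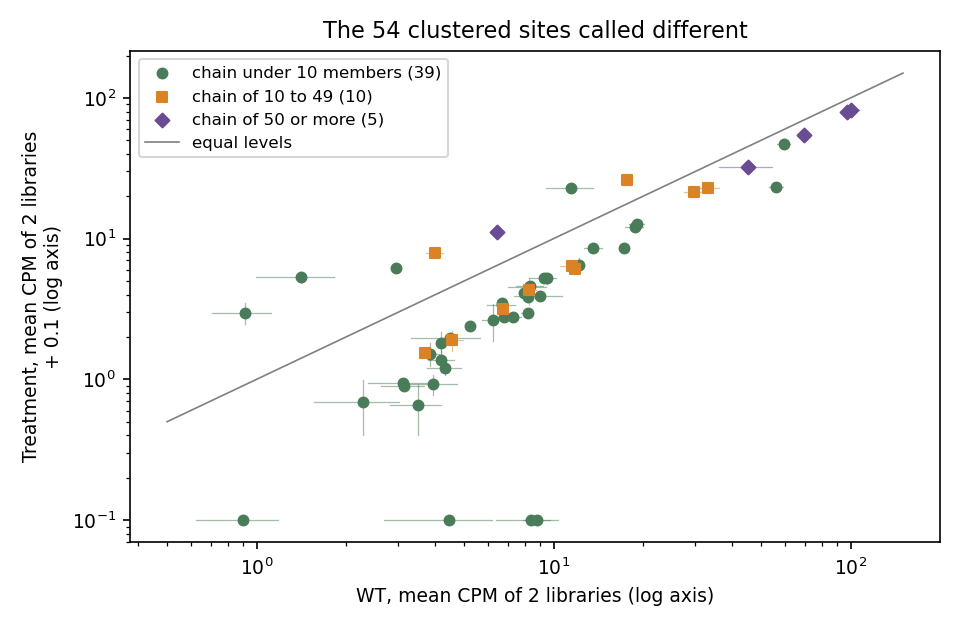
Each point is 1 of the 54 clustered sites with an edgeR adjusted p under 0.05, at its mean CPM in WT (x axis) and in Treatment plus 0.1 (y axis), both log axes; thin lines join the 2 replicates of a group. The 47 lower sites lie below the line of equal levels and the 7 higher sites above it, and the 4 lower sites of long chains are close to the line at the upper right.

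Of the 54 called members, 39 lay in chains of under 10 members, 10 in chains of 10 to 49 and 5 in chains of 50 or more. A log2 fold change of at least 1 in size was reached by 27 of the lower and 4 of the higher ones. The called members touched another interval less often than members at large, with 25 of 54 (46.3%) against 72.9%. This difference was not tested. Coverage differed too, as tested members that touched no other interval had a median count of 102.4 per library, against 73.9 in those that did. Of the sites named in the next paragraphs, some have the largest changes among the better covered called members, and the chains on chromosomes 23, 19, 5 and 20 were singled out after their values were seen.

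The strongest change was on chromosome 23. A chain of 4 sites ran from 43595767 to 43614753, and 3 of the 4 had no read in either Treatment library. The site from 43613008 to 43613457 had 0 and 0 reads in Treatment, and 127 and 165 in WT. The site from 43613895 to 43614185 had 0 and 0 in Treatment, and 103 and 176 in WT. The site from 43614401 to 43614753 had 0 and 0 in Treatment, and 43 and 105 in WT. Against a floor of 3 reads over the group, they were at least 92.2-fold, 88.1-fold and 46.7-fold lower in Treatment, with edgeR adjusted p of 7.2e-14, 4.57e-13 and 4.19e-09. With 0 reads in Treatment, these sites passed the read filter through their WT reads alone. The loss of reads was not limited to the narrow sites. An 11635 bp interval before them, from 43597961 to 43609595, also had 0 and 0 reads in Treatment, and 105 and 118 in WT. On either side reads were present in all libraries. The first site of the chain, 43595767 to 43596010, had 61 and 56 reads in Treatment, and 53 and 100 in WT, and the 60543 bp interval before it had 415 and 442 in Treatment, and 432 and 455 in WT. After the chain, the narrow interval from 43638599 to 43639060 had 143 and 155 reads in Treatment, and 235 and 302 in WT (log2 fold change -0.77, adjusted p = 0.00806), and the interval that touches it had 142 and 163 in Treatment, and 146 and 208 in WT. The 4 intervals without Treatment reads were thus consecutive in the table and stood between intervals with reads in both groups. Whether the missing reads reflect a loss of accessibility was not tested. The 3 sites were called under every scaling, filter and tool in which they were tested. With 0 reads in both Treatment libraries, neither a scaling nor a left-out library could change their direction, so this adds no support.

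A weaker pattern of this kind was seen on chromosome 19. Of 7 sites from 23042486 to 23064838, 5 consecutive ones had 0 reads in both Treatment libraries, but the WT levels were low. The one that could be tested and was called, 23049885 to 23050160, had 0 and 0 reads in Treatment, and 10 and 20 in WT, which is at least 9.48-fold lower. With 0 reads in Treatment, it passed the read filter through its WT reads alone. Its adjusted p was 0.00528 with edgeR and 0.0783 with DESeq2. The other 4 had 5 to 27 reads in a WT library and were too thinly covered to be tested by themselves. Over the 7 sites there were 27 and 32 reads in Treatment, and 115 and 86 in WT, log2 fold change -1.69, SE 0.30 (adjusted p = 0.000455). The first site of the chain had 22 and 25 reads in Treatment, and 26 and 21 in WT. The 3 tested sites had log2 fold changes of -6.88, -1.65 and 0.07, and only that at -6.88 was called. The span also held 2 intervals that are no members, and the 1 of these that was tested had -2.42. Lower values were thus not limited to the narrow sites here either. What the missing reads reflect was not tested here.

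On chromosome 12, a chain of 5 sites from 11176891 to 11198725 was lower as a whole. Its middle site, 11192869 to 11193645, had 44 and 46 reads in Treatment, and 125 and 145 in WT, log2 fold change -1.50, SE 0.26 (edgeR adjusted p = 0.000219). Its last site, 11198372 to 11198725, had 15 and 25 in Treatment, and 74 and 64 in WT (log2 fold change -1.71, SE 0.36, adjusted p = 0.00413). The other 3 had log2 fold changes of -1.03, -1.02 and -0.66 and did not pass the test. The wider intervals between the sites were low as well, and 3 of these 4 passed the test. The one of 11672 bp after the first site had 74 and 126 reads in Treatment, and 291 and 279 in WT (-1.44, adjusted p = 1.16e-06). Outside the chain, the 9021 bp interval that touches its start had 141 and 149 reads in Treatment, and 126 and 164 in WT, a 51 bp piece at its end, too thin to test, had 5 and 3 in Treatment, and 16 and 10 in WT, and the interval after that had 116 and 123 in Treatment, and 149 and 132 in WT. Neither of the 2 wide flanking intervals passed the test, and the calls covered both sites and the space between them. The sum over the sites had log2 fold change -1.25, SE 0.15 (adjusted p = 2.43e-07).

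On chromosome 8, 3 neighbouring sites fell together. The first, 366989 to 367979, had 324 and 399 reads in Treatment, and 953 and 900 in WT, log2 fold change -1.28, SE 0.10 (edgeR adjusted p = 2.07e-12). It was the best covered of the sites that changed this much. The second, 368184 to 368418, had 39 and 44 in Treatment, and 119 and 105 in WT (-1.35, SE 0.27, adjusted p = 0.00275). The third, 370210 to 370748, had 120 and 146 in Treatment, and 274 and 297 in WT (-1.03, SE 0.17, adjusted p = 0.000115). The fourth site of the chain, 387096 to 387675, had 123 and 89 in Treatment, and 129 and 134 in WT (-0.22, adjusted p = 0.772). The nearest interval before the chain, of 39161 bp, had 321 and 390 in Treatment, and 399 and 402 in WT, and one of 19181 bp after it had 318 and 365 in Treatment, and 391 and 469 in WT. The table held no other interval between the 3 sites, and they were called in every alternative in which they were tested.

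On chromosome 5, a chain of 4 sites from 53154563 to 53171718 stood alone, with no other interval of the table between the sites. The second site, 53159373 to 53159695, had 10 and 16 reads in Treatment, and 50 and 80 in WT (log2 fold change -2.23, SE 0.40, edgeR adjusted p = 0.000493). The fourth, 53171303 to 53171718, had 18 and 16 in Treatment, and 60 and 83 in WT (-1.98, SE 0.36, adjusted p = 0.000743). The third, 53161003 to 53161279, had 13 and 5 in Treatment, and 25 and 51 in WT (-1.97, SE 0.51, adjusted p = 0.0392). The first, with 9 and 14 in Treatment, and 21 and 60 in WT, did not pass (-1.72, adjusted p = 0.0657). All 4 sites had log2 fold changes between -2.23 and -1.72. The nearest interval before the chain, of 58852 bp, had 125 and 120 reads in Treatment, and 99 and 97 in WT.

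Sites of one chain could also go opposite ways. On chromosome 20, 7 sites ran from 55163992 to 55189467. The second, 55166209 to 55166624, had 333 and 385 reads in Treatment, and 217 and 160 in WT, log2 fold change 1.0, SE 0.16 (edgeR adjusted p = 4.46e-05). Its neighbours before and after had log2 fold changes of 0.26 and 0.43 (adjusted p = 0.561 and 0.0852). The fifth, 55171318 to 55171583, had 13 and 13 reads in Treatment, and 38 and 65 in WT (-1.89, adjusted p = 0.00894). The sixth, 55187581 to 55187840, had 12 and 5 in Treatment, and 45 and 71 in WT (-2.66, adjusted p = 0.000259). The seventh, 55189214 to 55189467, had 12 and 13 in Treatment, and 42 and 62 in WT (-1.96, adjusted p = 0.00541). The first 3 sites, all well covered, thus had positive log2 fold changes and the last 3, thinly covered, were lower, with a site of almost no reads (0 and 0 in Treatment, 0 and 2 in WT) between them.

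**Figure D4:**
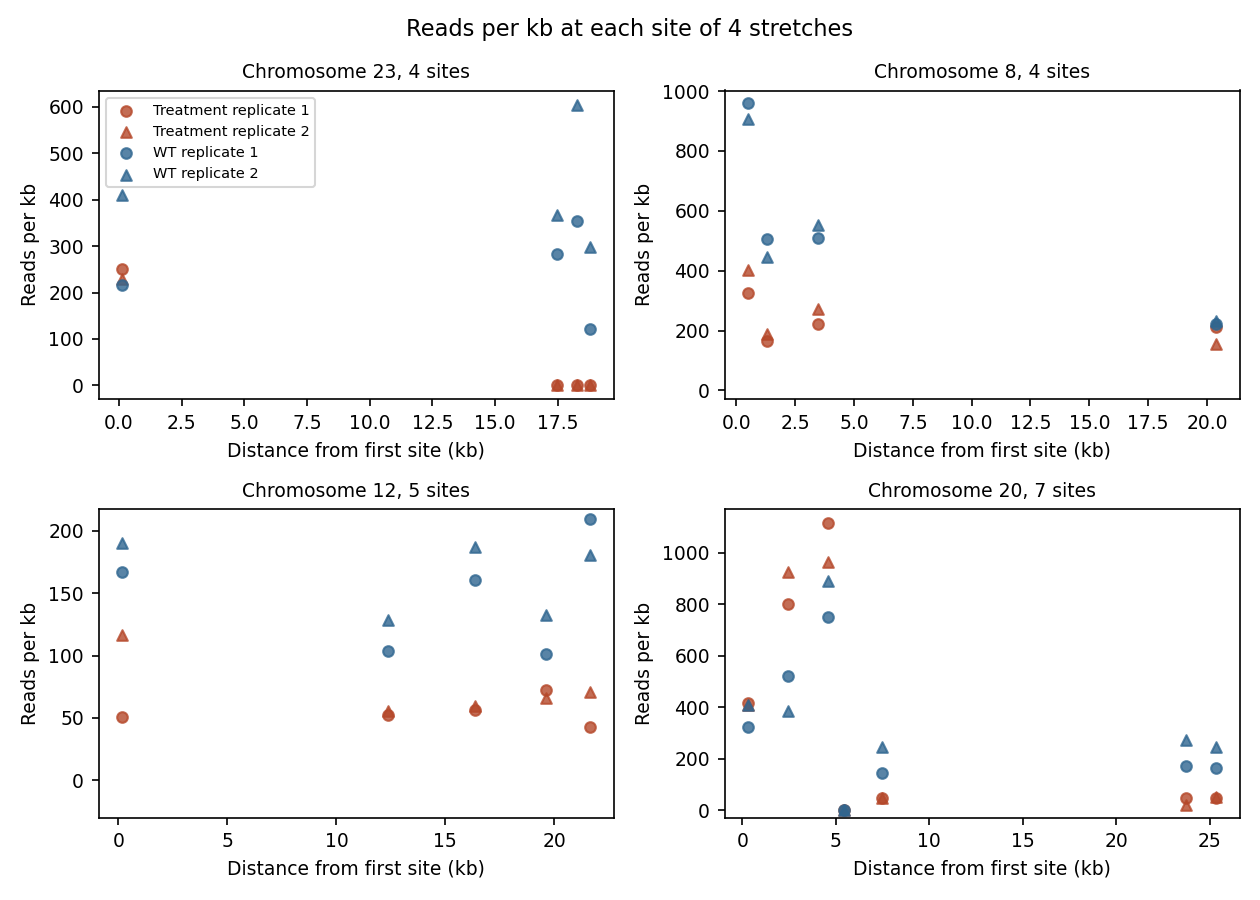
Reads per kb in each library at every member of the chains on chromosomes 23, 8, 12 and 20, by distance in kb from the first site. On chromosome 23 the last 3 sites are at 0 in both Treatment libraries, on chromosome 8 the first 3 of 4 sites are lower in Treatment, on chromosome 12 all 5 have fewer reads in Treatment, and on chromosome 20 the second site is higher and the last 3 are lower.

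In other places a single site changed among neighbours that did not pass the test. On chromosome 14, the site from 4113124 to 4113538 had 52 and 67 reads in Treatment, and 171 and 125 in WT (log2 fold change -1.24, SE 0.24, edgeR adjusted p = 0.00194). The 3 other sites of its chain had log2 fold changes of -0.04, 0.15 and 0.0052. On chromosome 21, the site from 21612036 to 21612452 had 56 and 60 in Treatment, and 130 and 141 in WT (-1.14, SE 0.24, adjusted p = 0.00492), and 2 others of its chain had -0.41 and 0.02. On chromosome 12, the site from 28942350 to 28942924 had 84 and 102 in Treatment, and 177 and 212 in WT (-0.99, SE 0.20, adjusted p = 0.00311), in a chain of 10 in which the other 9 lay between -0.69 and 0.64. On chromosome 17, the site from 41290390 to 41290963 had 54 and 72 in Treatment, and 126 and 136 in WT (-0.98, adjusted p = 0.024, but 0.186 with DESeq2), and none of the 6 others of its chain passed.

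On chromosome 10, 2 of 9 sites of a chain from 9141565 to 9169534 were lower. The site from 9156835 to 9157421 had 49 and 57 reads in Treatment, and 109 and 112 in WT (log2 fold change -0.98, edgeR adjusted p = 0.044). The site from 9153010 to 9153478, named after its values were seen, had 83 and 77 in Treatment, and 159 and 154 in WT (-0.89, adjusted p = 0.0264). A site between them, from 9154922 to 9155190, had 41 and 43 in Treatment, and 54 and 62 in WT (-0.38, adjusted p = 0.704). With DESeq2 the adjusted p of the 2 lower sites was 0.307 and 0.20.

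The 7 higher members were fewer and more scattered. Besides the site on chromosome 20, 3 met the rule for named sites. The site from 35069120 to 35069479 on chromosome 8 had 105 and 139 reads in Treatment, and 68 and 63 in WT (log2 fold change 0.97, SE 0.24, edgeR adjusted p = 0.0301). On chromosome 17, in or near the dense stretches, 23540780 to 23541744 had 156 and 191 in Treatment, and 104 and 109 in WT (0.78, SE 0.20, adjusted p = 0.0348), and 23426481 to 23427022 had 365 and 449 in Treatment, and 291 and 291 in WT (0.56, SE 0.13, adjusted p = 0.0146). The other 3 were all on chromosome 14 and had fewer reads, and they are named after their values were seen. The largest rise was at 33877627 to 33878006, with 70 and 95 reads in Treatment, and 16 and 31 in WT (1.88, SE 0.34, adjusted p = 0.000497). Of the 8 other sites of its chain, 7 were tested and none passed. The site itself was called in every alternative run. The site from 239788 to 240048 had 35 and 56 in Treatment, and 18 and 12 in WT (1.66, SE 0.42, adjusted p = 0.0317), and that from 20942856 to 20943374 had 93 and 96 in Treatment, and 49 and 48 in WT (1.04, SE 0.27, adjusted p = 0.0428). With DESeq2, only the sites from 55166209 on chromosome 20 and from 33877627 on chromosome 14 kept an adjusted p under 0.05.

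In the long chains, the 4 lower members were among the best covered sites and changed little. The site from 13422489 to 13422893 on chromosome 12 had 482 and 528 reads in Treatment, and 579 and 920 in WT (log2 fold change -0.49, SE 0.12, edgeR adjusted p = 0.0221). Its WT replicates were far apart. The site from 19550647 to 19551114 on chromosome 16 had 826 and 868 in Treatment, and 1069 and 1227 in WT (-0.36, SE 0.08, adjusted p = 0.0115). The remaining pair, from 18131250 to 18132120 on chromosome 15 and from 25114088 to 25114621 on chromosome 12, had -0.30 and -0.28. None of the 4 was called with DESeq2. These 4 sites are named after their values were seen.

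Chains were then tested as units, with the reads of their members summed. Of 794 chains tested, 33 were lower and 2 higher at an adjusted p under 0.05, beside 0.923% and 0.522% of the 44096 intervals and chains tested together. Most of these 44096 were single intervals, while a chain pools the reads of its members, so the shares are not like for like. Whether read number accounts for the count of lower chains was not tested. Under the scaling to narrow intervals, 6 chains were lower and 3 higher. The median log2 fold change of a chain was -0.16, and 644 chains (81.1%) had a negative value. Isolated narrow intervals, taken singly, had a median of -0.17, so a negative median was not particular to chains. Of the 35 called chains, 31 had under 10 members and 20 held no member that was called by itself. The called chains from 23589326 on chromosome 5 and from 2668710 on chromosome 8 held 1 member each, so no reads were pooled there. The former is among the 20, with log2 fold change -0.895 as an interval and -0.896 as a chain. In 6 of the lower chains the log2 fold change of the sum was beyond -1, among them those described on chromosomes 23, 5, 19, 12 and 8. The other 27 changed less, with a median of -0.53 over all 33. Among the lower chains of under 50 members, the one with most members was on chromosome 15, with 19 sites from 23692228 to 23762206. All 19 had a negative log2 fold change, between -1.17 and -0.02. It had 972 and 1095 reads in Treatment, and 1300 and 1671 in WT, log2 fold change -0.44, SE 0.08 (adjusted p = 0.000456), but -0.29 (adjusted p = 0.0941) without WT replicate 2. The higher chains were that on chromosome 20 and one of 5 sites on chromosome 18, from 30422119 to 30433579. The sum on chromosome 20 had log2 fold change 0.32, SE 0.08 (adjusted p = 0.0298). Its sites did not rise as a unit, with 3 called lower, 1 called higher and a median of -0.81 over those tested. The chain on chromosome 18 had 476 and 528 reads in Treatment, and 309 and 433 in WT (0.52, SE 0.13, adjusted p = 0.0189). All 5 sites of the chain on chromosome 18 had positive values, between 0.29 and 0.80, and none passed by itself. Both higher chains lost the call when some libraries were left out or with DESeq2. The chains on chromosomes 23, 5, 19, 12 and 8 (from 366989) kept it in every setting that left the chains as defined. A setting with a shorter joining distance redrew the chains, and single chains were not followed there. Without WT replicate 2 the number of lower chains was 9, without Treatment replicate 2 it was 11, and without WT replicate 1 it was 104.

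Neighbouring sites moved together to a small degree. Over 6406 pairs of consecutive tested members of a chain, Pearson's r of their log2 fold changes was 0.34. In chains under 50 it was 0.42 over 3065 pairs, but 0.19 over the 2991 pairs in which neither site was called. The difference between replicates was also shared by neighbours there, with r = 0.13 for the Treatment pair and 0.16 for the WT pair. In chains of 50 or more, r of the log2 fold change was 0.10 over 3341 pairs, with 0.01 and 0.09 for the Treatment and WT replicate differences. The share of pairs with the same sign was 60.3% in chains under 50 and 53.2% in longer ones. Pairs share libraries and local read density, and touching intervals can share fragments, so these values are descriptions.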

How the data were processed

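Bulk ATAC-seq was done on nonCMs at 7 days, with 2 Treatment and 2 WT libraries. Per the study's methods, reads were trimmed with Trim Galore, aligned to GRCz11 (danRer11) with Bowtie2, and mitochondrial and multiply mapped reads were removed. Genrich then called peaks per condition from its 2 replicates together (q-value cutoff 0.05), and the authors tested them with DESeq2. Duplicate removal, Tn5 shifting and the counting tool are not given in the sources used here. The authors deposited raw counts per interval. All 54036 intervals were used, and 0 columns were left unused. Starts are printed after adding 1, since 24126 intervals began where the one before ended and 0 overlapped.

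Intervals were filtered with filterByExpr (minimum count 10), scaled with TMM and tested with edgeR 4.0.16 (glmQLFit and glmQLFTest, R 4.3.3), fitting group alone, with Benjamini-Hochberg adjustment over all tested intervals. SEs are the log2 fold change over the square root of F. Log2 CPM used a prior count of 2. Reads are not independent molecules, so intervals and floors (3 reads) cover counting error only. Single values were compared by exact permutation over libraries. The fit was checked on simulated counts in which some members were changed by a known size. Of 100 members changed by 1 on the log2 scale, 43% were recovered, and of 100 changed by 2, 93%. Among the unchanged intervals 8 were called. A site that did not pass the test can therefore still have changed.

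Named sites are, among called members whose groups do not overlap and whose mean CPM reaches the median of the tested members, the 8 with the largest change in each direction, together with the 5 densest members and the 3 longest chains. The members and lists were chosen with earlier results of these data known. Alternatives used other scalings, filters, DESeq2 1.42.0, limma 3.58.1, membership rules, left-out libraries and a replicate block. Motifs, gene loci and cell type loci were not analysed here.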

Additional observations from a re-analysis of the deposited data

How the results depend on the processing

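Members called lower numbered 14 with DESeq2, 79 at an adjusted p under 0.1, 27 past a log2 change of 1, 27 with neighbours within 10000 bp, 20 with at least 5 others, 22 at widths of 100 to 500 bp and 4 in chains of 50 or more. Members called higher numbered 2, 19, 4, 6, 4, 3 and 1 in the same settings, 17 with neighbours within 50000 bp, 24 on all chromosomes, and 43 when TMM used narrow intervals (up to 1 kb). With a single library left out there were 17 to 127 lower and 5 to 37 higher members, and 9 to 104 lower and 0 to 4 higher chains; a lone library was taken to vary as the other group did. Chains called lower numbered 11 with DESeq2 and 6 when TMM used narrow intervals. Chains called higher numbered 1 with loess offsets, 1 when TMM used intervals of over 20 kb and 0 with DESeq2, where 6 were higher at an unadjusted p under 0.05, against 10 with edgeR. At 0 higher chains without Treatment replicate 1 and without WT replicate 1, edgeR had 5 and 6 at an unadjusted p under 0.05.

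The median log2 fold change of -0.054 was 0.060 when TMM used narrow intervals, -0.086 when it used those over 20 kb, -0.020 with loess offsets, -0.090 with neighbours within 50000 bp, -0.0037 with at least 5 others, -0.15 in chains under 50 and 0.034 in chains of 50 or more. Without a library it ranged from -0.069 to -0.014. The settings by chain size were chosen after seeing the data. The share of reads turned to 0.94 points with narrow intervals as denominator, and the summed chromosome 8 chain from 34507913 to 0.0014 when TMM used narrow intervals. The difference between members and isolated intervals kept its sign in all alternatives run.

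The replicate block gave 61 lower and 14 higher members, including all 54, and 44 lower and 2 higher chains. With the block the median was -0.053. The sources do not say whether a replicate number links a Treatment library to a WT library. The Treatment and WT replicate differences correlated at -0.07 across members, which cannot show whether the libraries were paired. Of the 54 called members, 41 were followed one by one across the settings, including some not named here, and 13 of them kept an adjusted p under 0.05 in every setting in which they were tested, and none of the 41 changed direction. The 13 include the 3 sites on chromosome 23 with 0 reads in both Treatment libraries, whose direction no setting could change. Motif windows were not run, as no genome was used here. At the median of 80 reads per member and library, counting error alone was 11.2%, and each group had only 2 libraries.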
